A study of Mus musculus with 4 samples.

Results

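The colony-stimulating factors, their receptors and a pair of regulators of the myeloid response to them were followed in infarcted mouse hearts, collected at day 5. The members are 9 genes chosen by name: the ligands Csf1, Il34 and Csf2, the receptor genes Csf1r, Csf2ra, Csf2rb and Csf3r, the transcription factor gene Spi1 and the phosphatase gene Inpp5d. All 9 had a probe among the 20653 genes that could be named on the arrays, and 8 passed the filter on dim probes, Csf2 being the exception. The rule is the genes' names, and the list was drawn up with earlier results of these data known. The hearts came from male mice whose left anterior descending coronary artery had been ligated. Controls were WT, and the others were VE-Cad-Cre-S1pr1 fl/fl mice (KO), in which Cre under the VE-cadherin promoter is meant to delete the floxed S1pr1 gene, a receptor for sphingosine 1-phosphate, from endothelial cells. Every mouse was infarcted, so nothing here describes an uninjured heart, and the labels do not say whether the WT mice carried Cre or floxed alleles. Constitutive VE-cadherin Cre lines are also known to mark part of the blood lineage; whether this Cre was inducible is not given in the sources used here. Age and strain are likewise not given.

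CSF1 and IL-34 are ligands of a shared receptor tyrosine kinase, CSF1R, which maintains monocytes and macrophages. CSF2, also called GM-CSF, acts through its own alpha chain, CSF2RA, paired with the common beta chain CSF2RB, while CSF3R is the receptor for G-CSF and is found mainly on neutrophils. PU.1, the product of Spi1, is the transcription factor on which myeloid identity depends, and SHIP1, the product of Inpp5d, removes a phosphate from a membrane lipid and so limits signalling below these receptors. In the infarcted heart, cells that carry these receptors arrive as neutrophils and as monocytes. The monocytes mature into macrophages that clear debris and shape the scar.

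Total RNA was amplified with Cy3, and the product was hybridised to 4 1-colour Agilent arrays, numbered as in the labels: 1 and 3 for WT, 3 and 4 for KO. Whether each came from its own heart is not stated, and p-values therefore reflect the spread of these samples alone, some of which may be technical. The arrays shared a slide and a scan. Their positions were 4, 3, 2 and 1 in the order just given, so position and genotype cannot be told apart. WT replicate 1 stood apart: 54.3% of its probes were well above background, against 69.4% to 73.4% on the others, and the mean of its 12 ventricular cardiomyocyte markers was 2.60, against 6.27 to 6.78 on the others. S1pr1, the targeted gene, measured 0.43 and 0.95 in the controls and -2.69 and -2.30 in the knockouts, a difference of -3.19 (SE 0.38, adjusted p = 0.740 in limma). Whether its probe lies inside the deleted stretch is not known here. In the fit over all 22924 features, limma called 0 (0%) at an adjusted p under 0.05, and 632 (2.76%) had an unadjusted p under 0.05. A level is the log2 signal minus that array's own 75th percentile, so a step of 1 is a doubling, and differences are KO minus WT on that log2 scale. Because each probe has its own brightness, levels of different genes were not ranked.

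No member passed the test between genotypes (0 of 8 at an adjusted p under 0.05 in limma, and 0 at an unadjusted p under 0.05). Of the 8 tested members 6 had a lower mean in KO and 2, Il34 and Csf3r, a higher one; over all features the lower share was 45.2%. The median difference of the members was -0.71, beside 0.07 over all features. Csf2ra, Spi1 and Inpp5d were lower on both KO arrays than on both WT arrays, so the genotypes did not overlap for 3 of 8 members (37.5%). Over all features this held for 34.4% in either direction and for 16.1% with KO lower. With 2 arrays against 2, an exact two-sided permutation test cannot go below p = 0.333, which is what these 3 genes gave.

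**Figure D1:**
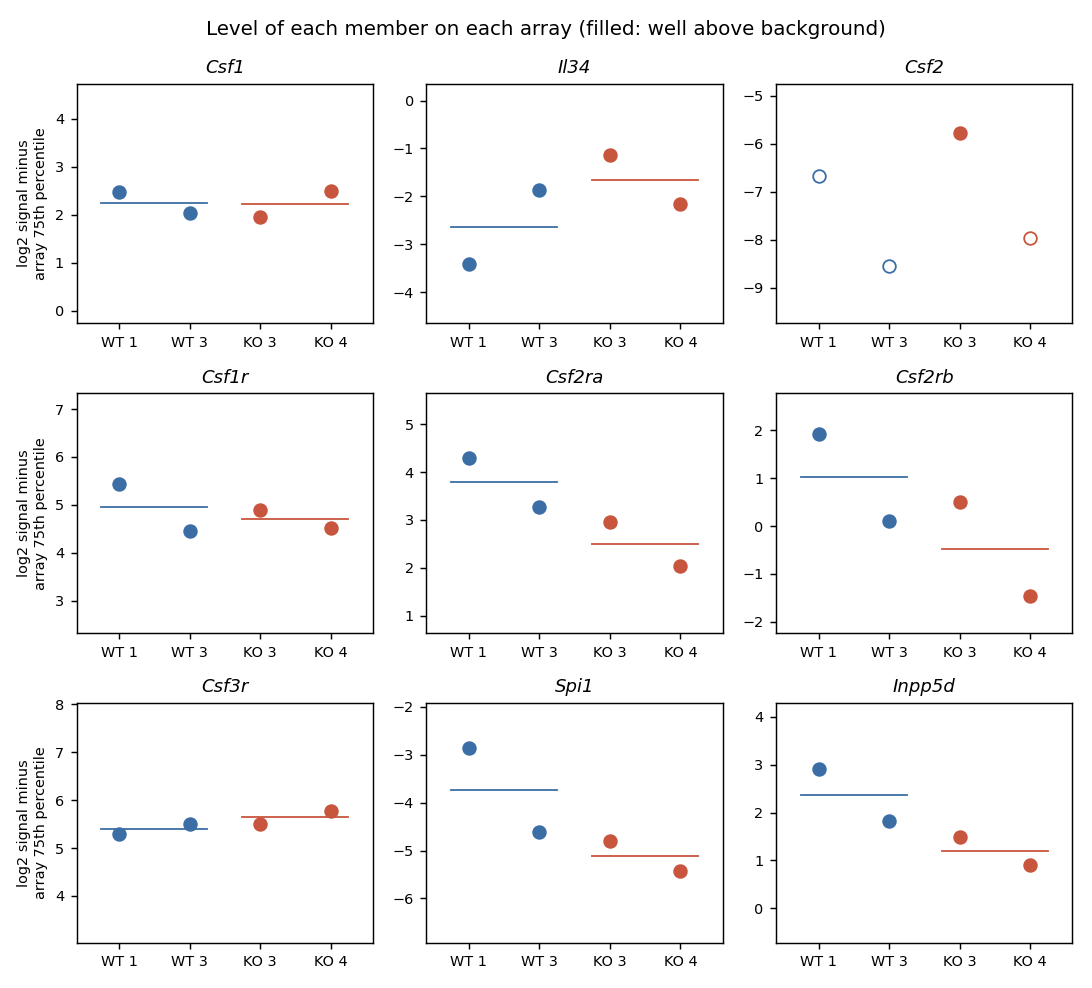
Level of each of the 9 members on each array, as log2 signal minus the 75th percentile of that array, for WT replicates 1 and 3 (blue) and KO replicates 3 and 4 (red). Filled points were well above background, horizontal lines are means of 2 arrays, and every panel spans the same number of log2 units. Csf2ra, Spi1 and Inpp5d step down from WT replicate 1 to KO replicate 4, whereas Csf1 and Csf3r stay within 0.55 and 0.50 over the 4 arrays.

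Among the ligands, Csf1 differed little between arrays. Its brightest probe read 2.47 and 2.04 in WT and 1.94 and 2.49 in KO. The genotypes overlapped, with WT replicate 1 and KO replicate 4 high and the arrays numbered 3 low. Mean levels (SD, n = 2 each) were 2.26 ± 0.30 in WT and 2.22 ± 0.39 in KO, and the difference was -0.04 (SE 0.38, 95% interval -1.07 to 0.99, adjusted p = 0.974 in limma). This probe was printed many times on each array, and its 9 or 10 spots had an SD of 0.016 to 0.037, well under the spread between arrays. The array carries 2 dimmer Csf1 probes assigned to another RefSeq transcript of the gene, and these differed by -0.38 and -0.45. On both of them the KO arrays lay below the WT arrays, so the probes of Csf1 disagree on whether the genotypes overlap.

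Il34 encodes the other ligand of CSF1R, a cytokine made outside the blood lineage, and it was the only ligand well above background on all 4 arrays with a higher mean in KO. It read -3.42 and -1.86 in WT and -1.15 and -2.16 in KO. WT replicate 1 was lowest and KO replicate 3 highest, and WT replicate 3 lay above KO replicate 4, so the genotypes overlapped. The difference was 0.99 (SE 0.70, 95% interval -0.88 to 2.86, adjusted p = 0.740 in limma), and leaving out WT replicate 1, WT replicate 3, KO replicate 3 or KO replicate 4 gave 0.21, 1.77, 0.48 or 1.496. Of 7 smooth muscle and pericyte markers, 3 were also lowest on WT replicate 1, among them the pericyte genes Kcnj8 (-2.59) and Rgs5 (-0.42), while the other 4, Pdgfrb included, were highest there. The part of these cells in the Il34 values was not tested.

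Csf2, which encodes GM-CSF, was close to the limit of these arrays. Its probe read -6.67 and -8.56 in WT and -5.77 and -7.97 in KO, and only KO replicate 3 was well above background, on 10 of 10 spots. On WT replicate 1 the lowest signal well above background was -4.39, higher than any Csf2 value, so that array could not have shown Csf2 at the level seen on KO replicate 3. No fold change is given, and Csf2 was left out of the tests.

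The receptor genes did not behave alike. Csf1r, through which CSF1 and IL-34 act, read 5.44 and 4.46 in WT and 4.89 and 4.52 in KO. WT replicate 1 was the highest and WT replicate 3 the lowest, so both KO values lay between the WT values. The difference was -0.25 (SE 0.47, 95% interval -1.50 to 1.005, adjusted p = 0.847 in limma). It turned to 0.24 without WT replicate 1 and was -0.74 without WT replicate 3. The 2 dimmer Csf1r probes differed by -0.02 and 0.07.

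Csf2ra, the chain that gives the GM-CSF receptor its specificity, read 4.30 and 3.27 in WT and 2.95 and 2.03 in KO. Both KO values were below both WT values, although WT replicate 3 and KO replicate 3 were only -0.32 apart (KO minus WT). Mean levels (SD, n = 2 each) were 3.79 ± 0.73 in WT and 2.49 ± 0.65 in KO, which is 2.45-fold lower in KO. The log2 difference was -1.29 (SE 0.56, 95% interval -2.79 to 0.20), with an unadjusted p of 0.0753 and an adjusted p of 0.740 in limma. Omitting WT replicate 1 gave -0.78 and omitting KO replicate 4 gave -0.83.

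Csf2rb, the beta chain shared by the receptors for GM-CSF, IL-3 and IL-5, varied more than any other tested member, over 3.38 from its highest array to its lowest. It read 1.92 and 0.12 in WT and 0.51 and -1.47 in KO, so KO replicate 3 lay above WT replicate 3. The difference was -1.50 (SE 0.95, 95% interval -4.06 to 1.06, adjusted p = 0.740 in limma), and it was -0.60 without WT replicate 1, -0.51 without KO replicate 4, -2.40 without WT replicate 3 and -2.48 without KO replicate 3. A dimmer Csf2rb probe read -3.94 and -4.67 in WT and -4.76 and -5.23 in KO, a difference of -0.69 with no overlap. The neighbouring paralog Csf2rb2, an IL-3 receptor chain close in sequence, differed by -1.51 (SE 0.68), and the paralogs may share signal.

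Csf3r, the G-CSF receptor gene, was the steadiest member. It read 5.29 and 5.51 in WT and 5.50 and 5.78 in KO. KO replicate 3 minus WT replicate 3, arrays that share only a number, was -0.01. The difference was 0.24 (SE 0.33, 95% interval -0.63 to 1.12, adjusted p = 0.798 in limma), and the genotypes overlapped. Csf3r rested on 1 probe. The neutrophil genes S100a8 and S100a9 ranged more widely on the same arrays, from -0.06 to 2.46 and from 1.73 to 4.31, and both were highest on WT replicate 1, the array on which Csf3r was lowest. Of the 10 neutrophil markers 6 were highest on that array, 3 on KO replicate 4 and 1 on WT replicate 3, and 6 had a lower and 4 a higher mean in KO.

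Spi1, which encodes PU.1, read -2.87 and -4.62 in WT and -4.80 and -5.43 in KO. WT replicate 1 stood far above the other 3 arrays, which ran from -5.43 to -4.62, and the genotypes did not overlap. Mean levels (SD, n = 2 each) were -3.74 ± 1.24 in WT and -5.11 ± 0.44 in KO, and the difference was -1.37 (SE 0.70, 95% interval -3.25 to 0.50, adjusted p = 0.740 in limma). The size of this difference is uncertain because the probe was dim. It was -0.50 without WT replicate 1, -2.25 with WT replicate 3 left out, -0.41 with normexp background correction and -0.76 when signals under -4.39, the lowest level well above background on WT replicate 1, were set to it.

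Inpp5d, which encodes SHIP1, read 2.92 and 1.82 in WT and 1.48 and 0.90 in KO. As for Csf2ra, both KO values lay below both WT values and WT replicate 1 was the highest. The means were 2.37 ± 0.78 and 1.19 ± 0.42 (SD, n = 2 each), 2.26-fold lower in KO. The difference was -1.18 (SE 0.52, 95% interval -2.57 to 0.22), with an unadjusted p of 0.0802 and an adjusted p of 0.740 in limma, and it was -0.63 with WT replicate 1 left out and -1.73 with WT replicate 3 left out.

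Csf2ra and Inpp5d were the pair of members with the closest patterns. After each gene was centred on its own mean over the 4 arrays, their levels differed by a root mean square of 0.13, against 0.25 for Spi1 and Inpp5d, 0.28 for Csf2ra and Spi1, and up to 1.75 for Il34 and Csf2rb. These 3 genes had WT replicate 1 highest, then WT replicate 3, then KO replicate 3, with KO replicate 4 lowest, an order that 10.6% of all features had and that is also the order of slide positions. The RefSeq promoters (GRCm38.p6, 250 bases before to 50 after the start) of Inpp5d and Csf2ra are shown because they formed the closest pair. Capitals mark GGAAGT, part of the motif of ETS factors such as PU.1, searched on both strands. The Inpp5d window is chr1:87620062-87620361 on the plus strand and the Csf2ra window is chr19:61228369-61228668 on the minus strand, each written 5′ to 3′ in the direction of transcription.
Inpp5d: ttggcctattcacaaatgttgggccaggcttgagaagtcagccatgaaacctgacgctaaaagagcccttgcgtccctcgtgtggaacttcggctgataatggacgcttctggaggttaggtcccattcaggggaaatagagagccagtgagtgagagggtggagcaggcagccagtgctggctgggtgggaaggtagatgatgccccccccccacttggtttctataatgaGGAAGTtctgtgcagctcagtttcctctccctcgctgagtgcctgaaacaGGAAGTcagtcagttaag
Csf2ra: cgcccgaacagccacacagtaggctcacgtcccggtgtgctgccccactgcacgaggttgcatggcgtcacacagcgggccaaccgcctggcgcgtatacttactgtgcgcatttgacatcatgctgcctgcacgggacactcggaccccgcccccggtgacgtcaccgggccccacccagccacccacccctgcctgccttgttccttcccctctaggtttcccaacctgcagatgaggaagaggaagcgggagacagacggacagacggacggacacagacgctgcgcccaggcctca
The Inpp5d window held the motif on its own strand at 2 places, from -18 to -13 and from 32 to 37 relative to the start, and the Csf2ra window held none. Of 32851 promoters in the table, 23.8% held GGAAGT or its reverse complement. The table had a promoter for 5 members, and Csf1, Csf2 and Csf3r also held no match. The RUNX motif TGTGGT (16.8% of promoters) and the AP-1 motif TGACTCA (5.20%) were in 0 of the 5. A match is a description of letters and does not show binding.

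Leaving out 1 array at a time showed how far each difference rested on the outer arrays. KO replicate 3 was below WT replicate 3 for 5 of 8 members, beside 54.5% of all features. For Il34, Csf1r and Csf2rb it was above, by 0.72, 0.43 and 0.39. The members' median difference was -0.18 without WT replicate 1, -1.23 without WT replicate 3, -0.95 without KO replicate 3 and -0.41 without KO replicate 4.

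**Figure D2:**
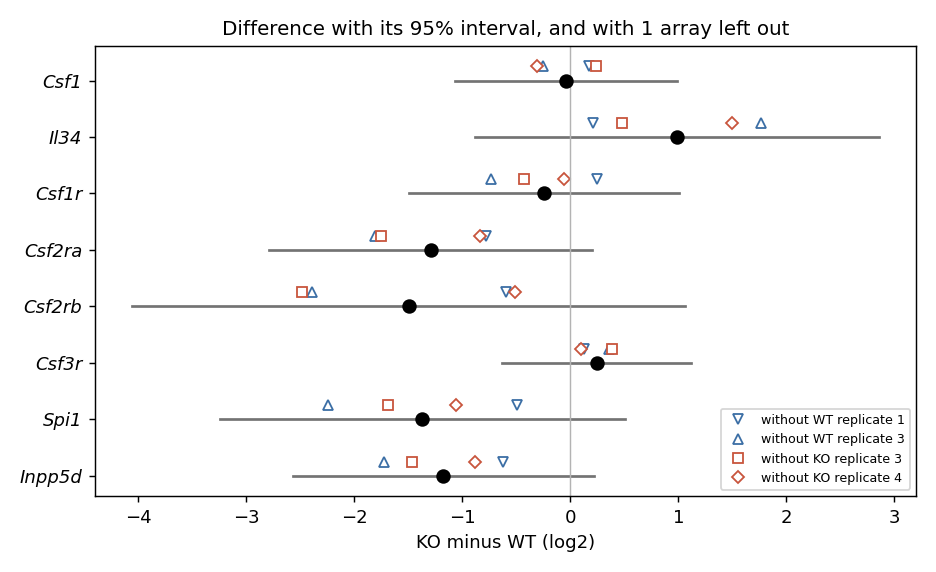
KO minus WT difference on the log2 scale for the 8 tested members (black points) with 95% intervals from limma (grey lines), and the same difference with 1 array left out (open symbols). Every interval includes 0. The estimates without WT replicate 1 lie closest to 0 for Spi1, Inpp5d and Csf2ra, at -0.50, -0.63 and -0.78.

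A log2 ratio between genes on the same array does not change when a single factor scales the whole array. Quantile normalization, which is not a single factor, can change it. The members were therefore also set against Csf1r within each array, a choice made after seeing the data. The ratio of Csf2ra to Csf1r was -1.14 and -1.19 in WT and -1.93 and -2.48 in KO. That of Inpp5d was -2.52 and -2.64 in WT and -3.40 and -3.62 in KO. In both cases the WT arrays nearly coincided and both KO arrays lay below them. How close the WT arrays were depended on the Csf1r probe. With a dimmer probe the WT ratios were also close, at 6.28 and 6.14 for Csf2ra and 4.90 and 4.69 for Inpp5d. With the flattest probe they were further apart, at 6.70 and 5.80 for Csf2ra and 5.31 and 4.34 for Inpp5d. The zero point of such a ratio depends on the probes and has no meaning by itself.

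Relative to Csf1r, Csf2ra differed by -1.05 (SE 0.63), Inpp5d by -0.93 (SE 0.61), Spi1 by -1.13 (SE 0.65) and Csf2rb by -1.25 (SE 0.78). The adjusted p was 0.994 for each in limma over 22923 features, of which 0 (0%) were called and 1.58% had an unadjusted p under 0.05. KO was below WT with no overlap for these 4 of the 7 other tested members, and for 13.4% of all features. For Csf2rb the WT and KO arrays numbered 3 were nearly level, at -4.34 and -4.38. With each dimmer Csf1r probe as the reference, Csf2ra, Inpp5d and Spi1 again did not overlap, while Csf2rb overlapped with the flatter of them. Without KO replicate 4 the ratios differed by -0.77 for Csf2ra, -0.82 for Inpp5d, -0.998 for Spi1 and -0.45 for Csf2rb. The Spi1 ratio was -0.18 with normexp correction.

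**Figure D3:**
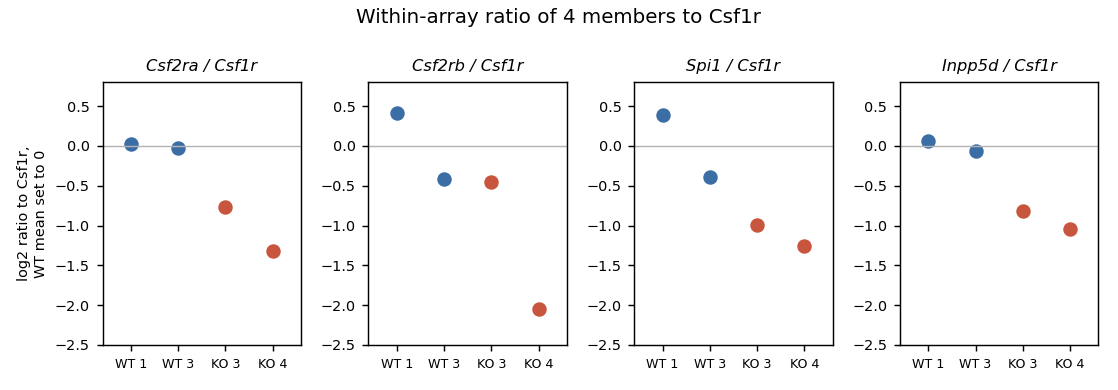
Log2 ratio of Csf2ra, Csf2rb, Spi1 and Inpp5d to Csf1r on each array, shifted so that the WT mean is 0, for WT replicates 1 and 3 (blue) and KO replicates 3 and 4 (red). The WT points of Csf2ra and Inpp5d nearly coincide and both KO points lie lower; for Csf2rb, WT replicate 3 and KO replicate 3 are nearly level.

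Markers of the cells that carry these receptors varied over the same arrays. In bulk RNA, fewer cells of a type and less RNA per cell cannot be told apart. The mean of 13 tested pan-macrophage markers, of 14 listed and without Csf1r, was 3.10 and 2.21 for the WT arrays, beside 2.10 and 0.80 for KO. Each of the 13 was well above background on every array and had a lower mean in KO, from -3.55 for the galectin gene Lgals3 to -0.03 for the integrin gene Itgam, with a median of -0.60. The markers were uneven. Lgals3, Fcgr1, Mpeg1, Ctss and Aif1 differed by -3.55 to -1.70 and did not overlap between genotypes. The other 8 differed by -0.79 to -0.03 and did overlap. Those without overlap were 38.5% of the 13, all with KO lower. Over all features the share was 34.4% in either direction and 16.1% with KO lower. Without WT replicate 1, 10 of the 13 were lower and the median was -0.15; without KO replicate 4 it was -0.23. KO replicate 3 lay below WT replicate 3 for 5 of the 13. The pan-leukocyte mean (8 of 8 markers lower) was 2.28 and 1.03 in WT and 0.90 and -0.64 in KO, and the monocyte mean (6 of 6 tested lower) was 2.67 and 1.69 against 1.16 and -0.85. The pan-leukocyte median was -1.39, and it was -0.84 without WT replicate 1 and -0.72 without KO replicate 4. For the monocyte markers the median was -2.04, and these omissions gave -1.38 and -0.99. The genotypes did not overlap for 62.5% of the pan-leukocyte and 66.7% of the monocyte markers, all with KO lower, beside 16.1% of all features. The part of these cells in the members' differences was not tested.

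Csf2ra followed the mean of these markers, a mean that the steeper ones weigh on. Its level minus their mean was 1.20 and 1.06 in WT and 0.85 and 1.24 in KO, a span of 0.39 over the arrays against 2.27 on the usual scale. The span shrank likewise to 0.72 for Inpp5d, 0.94 for Spi1 and 1.08 for Csf2rb, from 2.02, 2.56 and 3.38. It widened to 1.48 for Csf1r, 2.33 for Csf1, 2.80 for Csf3r and 3.56 for Il34, from 0.98, 0.55, 0.50 and 2.27. The span was smaller on this scale for 4 of 8 members and for 15.3% of all features. Relative to the macrophage mean, Csf2ra differed by -0.09 between genotypes, Inpp5d by 0.03, Spi1 by -0.17 and Csf2rb by -0.29, while Csf1r differed by 0.96. With the median marker of each array as the reference, which was 3.14 and 2.36 in WT and 2.66 and 0.37 in KO, Csf2ra was less level, at 1.16 and 0.91 in WT and 0.29 and 1.67 in KO. Its span was then 1.38, and those of Inpp5d, Spi1 and Csf2rb were 1.71, 1.67 and 1.02. These spans too were smaller than on the usual scale for 4 of 8 members, beside 10.4% of all features. Both references were chosen after seeing the data.

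**Figure D4:**
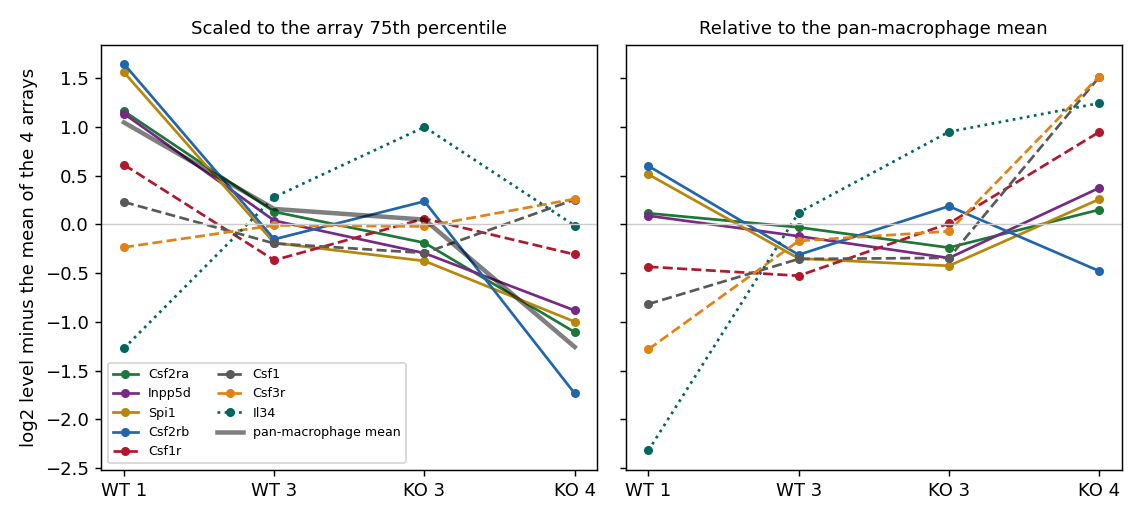
Log2 level of the 8 tested members on each array, each centred on its mean over the 4 arrays: on the usual scale (left, with the mean of 13 pan-macrophage markers in grey) and after subtracting that marker mean on each array (right). Lines join the values of 1 gene and imply no order of the arrays; Csf2ra, Inpp5d, Spi1 and Csf2rb flatten on the right, to spans of 0.39, 0.72, 0.94 and 1.08, whereas Csf1, Csf3r and Il34 spread out.

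Resident macrophage markers had a higher mean in KO for 5 of 7 genes, with array means of -0.42 and 0.06 in WT and 0.11 and 0.85 in KO. Those means include Cd163 and Timd4, not well above background on WT replicate 1; over the 5 markers above background on every array the WT means were 1.88 and 1.77, and the KO means 1.77 and 2.43. Folr2 differed by 0.50 (SE 0.36). Lyve1, a receptor of vessel-associated macrophages, differed by 0.80 (SE 0.73), and its genotypes overlapped. The markers with a lower mean in KO were Mrc1 (-0.30, SE 0.40) and F13a1 (-0.06, SE 0.42). The median difference of this list was 0.50. Without KO replicate 4 it was 0.10, and 3 of the 7 were lower. The array mean of 10 neutrophil markers was -1.29 and -3.15 in WT and -2.61 and -2.25 in KO, highest on WT replicate 1. Endothelial markers, the cells in which S1pr1 is meant to be lost, were higher in KO for 8 of 8 genes but by a median of 0.31 (0.18 without KO replicate 3), and none passed the test. Of the ventricular cardiomyocyte markers 11 of 12 had a higher mean in KO, a median of 2.15 that was 0.16 without WT replicate 1; the part of muscle RNA in the members' differences was not tested.

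Related genes were described by list, with the same fit. Of 23 tested receptor partners and signalling genes of the CSF and beta-common receptors, of 25 listed, 17 had a lower and 6 a higher mean in KO and 0 passed the test in either direction; the median difference was -0.72, and it was -0.23 without WT replicate 1 and -0.30 without KO replicate 4. Among the genes with the smallest p were the exchange factor gene Vav1 (-1.89, SE 0.70), the lipid receptor gene Trem2 (-2.55, SE 1.06) and Csf2rb2, with an adjusted p of 0.740 each in limma. Trem2 is in the list although it is not itself a CSF or beta-common receptor. Of the JAK and STAT genes in the list, which CSF receptors share with many other cytokines, Jak2 differed by -0.22, Stat3 by -0.16, Stat5a by 0.05 and Stat5b by 0.38; these were named after their values were seen. Csf3, the ligand of CSF3R, and Il5 did not pass the filter on dim probes.

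Among 19 tested myeloid transcription factors, of 20 listed, 14 were lower and 5 higher in KO, 0 passed, and the median was -0.74. Klf4, a factor of monocytes and of endothelium, had the smallest p and higher values in KO, 0.79 and 1.53 in WT against 2.30 and 2.60 in KO (difference 1.29, SE 0.40). Runx1, a factor needed for blood formation, differed by -2.43 (SE 1.10), Irf5 by -0.86 (SE 0.43) and Cebpa, a factor of granulocyte and monocyte fate, by -1.05 (SE 0.53). The adjusted p was 0.740 for each of these in limma. The ETS relatives of Spi1 in the list differed by 0.01 (SE 0.32) for Fli1, 0.04 (SE 0.45) for Ets1 and -1.10 (SE 0.66) for Etv6. Spib differed by -1.09 (SE 1.75), with -0.32 and -3.12 in WT and -0.69 and -4.93 in KO. The genotypes overlapped for each of them. Without WT replicate 1 the median of the list was -0.0033, and without KO replicate 4 it was -0.24.

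The 20 partners of SHIP1 in phosphoinositide signalling split more evenly, with 11 lower, 9 higher, 0 past the test and a median of -0.38 (-0.18 without WT replicate 1). The leukocyte members Dok1 (-2.10, SE 0.91), Pik3cd (-1.58, SE 0.77) and Ptpn6 (-1.58, SE 0.77) and the adaptor gene Pik3ap1 (-1.57, SE 0.38) had the smallest p; Pik3ap1 was well above background on only 2 arrays. Over the list, differences ran from -2.10 for Dok1 to 0.92 for the lipid phosphatase gene Inpp4b.

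All 17 tested genes of a list controlled by PU.1, of 18 listed, had a lower mean in KO, with a median of -1.18 and 0 past the test. Among the genes with the smallest p were Mpeg1, a pore-forming protein of phagocytes (-2.44, SE 0.99), the actin regulator gene Coro1a (-1.49, SE 0.61) and the protease gene Ctss (-1.74, SE 0.76), at an adjusted p of 0.740 each in limma. Of these 17 genes 7 did not overlap between genotypes (41.2%), all with KO lower. Over all features this held for 34.4% in either direction and for 16.1% with KO lower. Without WT replicate 1, 11 of the 17 were lower and the median was -0.50; without KO replicate 4 the median was -0.34. KO replicate 3 lay below WT replicate 3 for 7 of the 17. Mpeg1, Ctss, Lyz2, Cd14 and Itgam are also in the pan-macrophage list, and Coro1a, Laptm5, Ptprc and Itgb2 in the pan-leukocyte list.

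**Figure D5:**
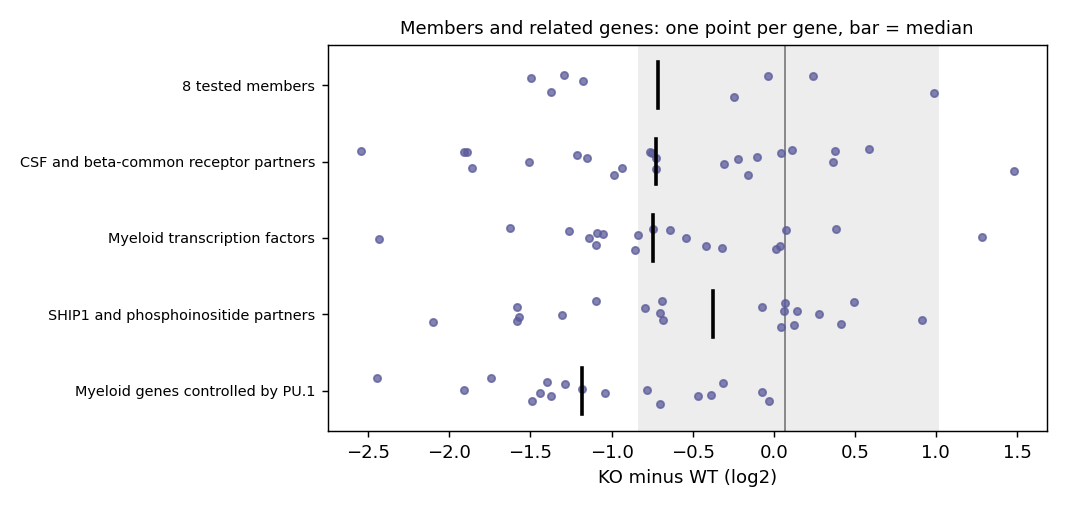
KO minus WT difference on the log2 scale for each tested gene (points, spread vertically for legibility) of the 8 members and 4 lists of related genes; black bars are medians, the grey line is the median of all 22924 features (0.07) and the shaded band runs from their 10th to their 90th percentile. Medians of the lists range from -1.18 for genes controlled by PU.1 to -0.38 for partners of SHIP1.

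The genes with the most similar pattern over the 4 arrays were looked up among 12916 genes well above background on every array, by the root mean square difference of centred levels. Nearest to Csf2ra were Artn, Cnn2 and Alox5ap (0.043 to 0.046), and nearest to Inpp5d were Ssr1, Sh3bp2 and Gmds (0.0078 to 0.037). Spi1 was nearest to Pgm3, Creb3l1 and Foxc2 (0.066 to 0.093), and Csf2rb to Cdr2l, Tfpi2 and Otulinl (0.081 to 0.095). Csf1r was nearest to Chtf8, B3galt6 and Polr1c (0.024 to 0.034), Csf1 to Tspyl2, Llcfc1 and Kcnk15 (0.015 to 0.041), and Csf3r to Mrpl27, Zglp1 and Nedd4l (0.010 to 0.013). How many genes were this close varied by member. Within 0.1 lay 26 genes for Csf2ra, 34 for Inpp5d, 5 for Spi1 and 4 for Csf2rb. For Csf1r, Csf1 and Csf3r the counts were 121, 88 and 844. At the looser limit of 0.2 there were 287 genes for Csf2ra, 298 for Inpp5d, 48 for Spi1 and 77 for Csf2rb. At that limit Csf1r had 1276, Csf1 1400 and Csf3r 2953. Il34 had the most isolated pattern, with 6 genes within 0.2; nearest were Higd1b, a gene of pericytes, at 0.078, the muscle myosin light chain gene Myl1 at 0.10 and Cst6 at 0.13.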

How the data were processed

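Per the labels' protocols, total heart RNA was extracted with Trizol and amplified with Cy3. Feature Extraction 11.0.1.1 produced the scanner files, per the file headers, whereas version 9.1 stands in the submitters' processing notes. The deposited scanner intensity is the processed signal, background-subtracted and detrended within each array. Other deposited values used, per the file headers, are spot flags (well above background, outlier, saturated; 0 spots were saturated). The authors' deposited value table holds log2 values alike in distribution between arrays, the normalization being not given in the sources used here; scale slopes against log2 scanner signals were 0.997 to 1.01, and differences taken from it matched those after quantile normalization more closely than the reported ones (Csf1r -0.32 in both); its centring stays unknown.

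After removal of control spots and outlier flags, log2 signals were averaged per probe. Array probes were named through RefSeq accessions of the GRCm38.p6 table (27227 of 39414 probes with 1 symbol, 0 with several, 12187 with none). The filter on dim probes required 2 of 4 arrays well above background, with the brightest probe per gene. KO was compared with WT by limma 3.58.1 (lmFit, eBayes, two-sided) in R 4.3.3, Benjamini-Hochberg adjusted over all features, threshold 0.05; the fit was tested on simulated data. The number of arrays limits the precision. Members, lists and alternatives were chosen with earlier results of these data known. Named genes were the members, S1pr1, up to 4 genes of smallest p per list, the 3 nearest patterns per member and markers; others were named after seeing their values. Some genes of these lists are not reported here by name. Normexp used median signals, the files having no column of mean signals. Alternatives were scaling, background, filter, probe choice, deposited values, a common floor, eBayes options, a threshold of 0.10 and each array left out.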

Additional observations from a re-analysis of the deposited data

How the results depend on the processing

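At an adjusted p under 0.05, 0 members were called by limma under any alternative, and 0 features except in the marker-relative settings below, also at 0.10 in the fit as reported; at an unadjusted p under 0.05 the counts of features ran from 166 without KO replicate 4 to 4249 without WT replicate 3, and those of members from 0 to 4. S1pr1, Csf2ra, Csf2rb, Spi1 and Il34 kept the sign of their difference under every alternative run, as did Csf3r; Inpp5d kept it except in those settings. Median scaling moved the median of all features from 0.07 to -0.04. Leaving out 1 array at a time gave differences from -0.31 to 0.24 for Csf1 and from -0.74 to 0.24 for Csf1r. Csf1 turned positive when WT replicate 1 (0.18) or KO replicate 3 (0.24) was omitted, as did Csf1r when WT replicate 1 was (0.24); the cause was not tested. Of the genes controlled by PU.1, 11 to 17 were lower. Without WT replicate 1, 4 of 8 members were lower. In settings chosen after seeing the data, levels were taken relative to the pan-macrophage markers. With their mean, the median of all features moved to 1.28, as the scaling itself subtracts a mean that is lower in KO. There 44 features passed, 3 of 8 members were lower, as were 6 receptor partners, 3 transcription factors, 5 partners of SHIP1 and 8 genes controlled by PU.1, and Csf1 (1.17), Csf1r (0.96) and Inpp5d (0.0303) reversed. With their median per array, 2 features passed, 3 of 8 members were lower, as were 5 receptor partners, 3 transcription factors, 5 partners of SHIP1 and 8 genes controlled by PU.1, and Csf1 (1.198), Csf1r (0.987) and Inpp5d (0.0577) reversed. Each of these references shifts every feature alike, so the features that passed there are not read as genotype differences. No paired analysis was possible because WT and KO share only the number 3. Signal over background limits Csf2, seen on 1 array, and the size of the Spi1 difference.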

Other observations

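Csf2 was not alone in being seen on 1 array. Csf3, which encodes G-CSF, Il5 and the myeloid repressor gene Gfi1 were also well above background on KO replicate 3 only. They were the other genes of these lists that had a named probe and failed the filter. Their levels there were -6.08, -4.31 and -5.20. Csf3 read -6.30 on KO replicate 4, and Il5 and Gfi1 read -4.88 and -5.30 on WT replicate 1, without passing as well above background. Their remaining levels were lower, from -7.77 to -6.54. Nothing under -4.39 passed on WT replicate 1, so that array could not have shown Csf3 or Gfi1 at their KO replicate 3 levels. Over all probes, 2232 were well above background on exactly 1 array, and KO replicate 3 held 1021 of them (45.7%), beside 790 on KO replicate 4, 294 on WT replicate 3 and 127 on WT replicate 1. These genes were singled out after their values were seen.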
